A study of Mus musculus with 6 samples.

Results

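Narrow RNA polymerase II (Pol II) peaks at gene starts were examined in primary mouse fetal myotubes. The peaks were chosen by the Pol II calls themselves: a peak of Pol II replicate 2 was taken where it was under 2000 bp wide, overlapped a peak of Pol II replicate 1 and had its centre within 1 kb of an annotated start of a protein-coding gene (NCBI Build 37, mm9). In all, 1230 of the 17488 peaks of replicate 2 met the rule (7.03%). They make up 27.8% of the 4431 peaks that were under 2000 bp and present in both replicates. Of the 22367 protein-coding genes, 1210 had such a peak within 1 kb of at least 1 start (5.41%). Width, presence in both replicates and nearness to a start therefore come from the choice, and the Pol II values of the members are given as a description without a test.

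The study mapped binding of Sox6, a transcription factor of the Sox family, beside Pol II. Chromatin came from wild type C57BL/6 fetal limb muscle (E18.5), grown as primary myoblasts at passage 17 and held for 48 h in medium with 2% horse serum to form myotubes. No genotype or treatment was varied, and all 3 groups (Sox6, Pol II and Input, with 2 libraries each) came from this kind of culture, so Sox6 and Pol II can be set against input, and sets of peaks against each other. Pol II was precipitated with an antibody against phosphorylated Pol II (4H8) after a double fixation, and a passaged culture of this kind holds whatever cells besides myotubes persisted in it. The Pol II libraries held 1538757 and 2762155 mapped reads, the Sox6 libraries 2985437 and 1468604, and the Input libraries 21973495 and 24249850.

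Pol II gathers just after the start of many genes because initiation is often followed by a pause, from which the kinase P-TEFb releases the enzyme into the gene body. At starts in CpG islands, stretches of DNA that keep their CpG dinucleotides, transcription commonly begins on both strands, whereas a TATA box upstream of the start is typical of strongly regulated genes. Housekeeping genes, such as those for ribosomal proteins, mostly use CpG island promoters, and the genes of the contractile apparatus mostly do not.

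The sequences below are examples of gene starts with such a peak nearby. They were picked because they hold a motif, so they do not show how frequent a motif is. Not every start shown lies under its peak, whose centre may be up to 1 kb away. Each runs 5′ to 3′ on the strand of the gene from 120 bases before its annotated 5′ end to 20 bases into it, read from the NCBI Build 37 genome, and comes from the named gene with the most Pol II around its member's centre that holds the motif and has a member at its 5′ end, with each gene shown for 1 motif. Capitals mark the motif named and any TATAAA on the gene strand. Polr2a, the largest subunit of Pol II, is shown for a TATA box that begins 29 bases before the start (chr11:69572120-69572259, minus strand). Hn1 is shown for CCAAT boxes, with a TATA box that begins 28 bases before the start (chr11:115375682-115375821, minus strand). Tuba1b, an alpha-tubulin, is shown for GC boxes, GGGCGG or its complement (chr15:98764977-98765116, minus strand). Gadd45b, a stress-response gene, is shown for the NRF1 core GCATGCGC (chr10:80392716-80392855, plus strand), and Gtf3c6, a subunit of the Pol III factor TFIIIC, for the ETS core CCGGAAG (chr10:39977452-39977591, minus strand). Eef2, the translocation factor of translation, is shown for the cyclic AMP response element TGACGTCA (chr10:80639256-80639395, plus strand), and Tars, a threonyl-tRNA synthetase, for the E-box CAGCTG (chr15:11329394-11329533, minus strand).
Polr2a: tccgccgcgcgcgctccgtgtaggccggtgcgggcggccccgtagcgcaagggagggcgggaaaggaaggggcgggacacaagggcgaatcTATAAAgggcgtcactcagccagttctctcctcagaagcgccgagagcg
Hn1: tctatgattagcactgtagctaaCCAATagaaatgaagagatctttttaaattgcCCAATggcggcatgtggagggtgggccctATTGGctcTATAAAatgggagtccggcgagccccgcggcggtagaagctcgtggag
Tuba1b: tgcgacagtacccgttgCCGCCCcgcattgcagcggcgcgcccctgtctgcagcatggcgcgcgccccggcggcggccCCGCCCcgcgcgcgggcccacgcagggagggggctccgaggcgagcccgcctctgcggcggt
Gadd45b: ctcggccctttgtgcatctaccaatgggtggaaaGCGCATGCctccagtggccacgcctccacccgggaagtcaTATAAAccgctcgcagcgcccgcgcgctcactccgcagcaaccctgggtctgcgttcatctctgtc
Gtf3c6: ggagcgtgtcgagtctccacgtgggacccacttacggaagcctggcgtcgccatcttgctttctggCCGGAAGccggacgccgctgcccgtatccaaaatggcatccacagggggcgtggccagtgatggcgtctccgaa
Eef2: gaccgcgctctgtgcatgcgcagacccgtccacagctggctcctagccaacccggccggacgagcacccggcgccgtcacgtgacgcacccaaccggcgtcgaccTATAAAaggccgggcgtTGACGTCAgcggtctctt
Tars: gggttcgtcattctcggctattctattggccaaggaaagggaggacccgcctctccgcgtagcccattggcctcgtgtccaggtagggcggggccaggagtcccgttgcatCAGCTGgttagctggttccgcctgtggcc

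One further sequence is the 141 bases around the centre of the narrow peak upstream of Hdac11, the histone deacetylase gene with the most Sox6 reads among the members away from repeats (chr6:91106161-91106301, plus strand). The peak itself spans the central 81 bases. Capitals mark 3 copies of the E-box CAGCTG, the site that MyoD and its relatives bind, and 1 match to the Sox motif ACAATG on the other strand, which begins 54 bases after the centre. This match and the E-box that begins 50 bases before the centre lie outside the peak.
Hdac11: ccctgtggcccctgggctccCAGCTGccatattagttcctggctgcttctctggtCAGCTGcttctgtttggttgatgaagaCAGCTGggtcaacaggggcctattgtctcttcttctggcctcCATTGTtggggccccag

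Pol II at gene 5′ ends was on average high at myotube markers and low at fibroblast, endothelial and neuronal markers. Over 20 myotube markers, reads within 500 bp of the 5′ end averaged 22.1 and 22.0 reads per 1000000 mapped reads (RPM) per gene in the Pol II replicates, against 0.792 and 0.891 in Input, and 0 of the 20 lacked reads in both, although Tnni1 had 0 and 1 reads and Neb 0 and 4. Over 9 fibroblast markers the averages were 0.217 and 0.201 RPM, below the Input values of 0.506 and 0.536, and 5 of the 9 (Col3a1, Dcn, Lum, Postn and Thy1) had no Pol II read. Endothelial markers averaged 0.130 and 0.217 RPM, below their Input of 0.282 and 0.363 RPM. Neuronal markers averaged 0.130 and 0.579 RPM, below their Input of 0.328 RPM in replicate 1 and above that of 0.388 RPM in replicate 2. No gene of these 3 lists had a narrow peak. The 5 blood markers averaged 2.73 and 2.82 RPM, above their Input values of 0.391 and 0.404 RPM and the averages of 1.70 and 1.63 RPM over all genes. Among them Cd68 alone had a narrow peak, with 21 and 37 reads, and Cd3e, Hba-a1 and Ptprc had no Pol II read. Its start lies 783 bp from the 3′ end of Eif4a1, a translation initiation factor on the same strand that has a narrow peak of its own, so reads at Cd68 cannot be assigned to 1 of the genes.

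A set of 11 members lay in windows with over 100 reads of the Input libraries together. Of these, 6 were at the predicted genes Gm10800 and Gm10801 on chromosome 2 and Gm10717, Gm10718, Gm10720 and Gm10722 on chromosome 9. Gm10800, with the most Pol II reads of all members, had 5662 and 8731 Pol II reads within 500 bp of the peak centre, or 3680 and 3161 RPM, but Input at the same place was 1366 and 8982 RPM. Gm10717 had 113 and 186 Pol II reads against 1730 and 5140 Input reads. At these 6 members Pol II was below Input in replicate 2, and at the other 5, which include 2 at Mid1, it was above Input in both. These windows are called repeat windows below by their Input reads alone, as no repeat annotation was used. Values below are given without these 11 members where they would decide an average.

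Within the limit of 1 kb on either side, members were most frequent next to the nearest start. That limit and the use of the nearest start place the median centre close to a start by choice, so it carries no test. The median centre lay 5.5 bp downstream of the nearest annotated start (quartiles −230 and 231 bp), 633 of the 1230 members (51.5%) lay downstream, and 660 (53.7%) lay within 250 bp. The most populated 100-bp step was the one right after the start, with 188 members. By annotation, 435 centres fell in exons of protein-coding genes, 449 in introns and 346 outside genes. Of the members, 877 lay within 1 kb of the 5′ end of a gene, which was not always their nearest start, and the other 353 lay near the start of a shorter transcript inside a gene only.

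**Figure D1:**
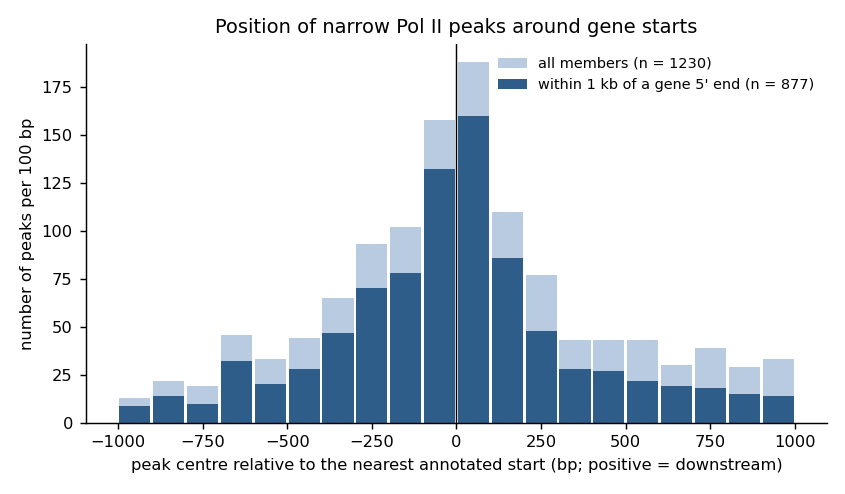
Number of members per 100 bp by the position of the peak centre relative to the nearest annotated start, in bp, with positive values downstream; pale bars count all 1230 members and dark bars the 877 within 1 kb of a gene 5′ end. Counts are highest in the 100 bp after the start (188 members) and fall away on both sides.

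Members next to internal starts differed from those at 5′ ends in their surroundings. Another Pol II peak of the same library lay within 1 kb of 238 of the 353 internal members (67.4%) and of 326 of the 877 members at 5′ ends (37.2%). Their median width was 551 bp against 401 bp, and 15.4% against 33.9% had the centre within 100 bp of the start, in counts without repeat windows. The 3201 other narrow peaks present in both replicates had a median width of 581 bp, close to that of the internal members. Their median distance to the next peak was 660 bp. Whether internal members mark starts or lie in gene bodies like those peaks was not tested. Ttn and Neb, which code for the giant sarcomere proteins titin and nebulin, and Macf1, a cytoskeletal linker with 5 members over 173840 bp, had internal members only. Brd2, a bromodomain protein that binds acetylated histones, had the most members of any gene, 6 over 8490 bp. Of the 1079 genes that own the nearest start of a member, 960 had 1 member and 119 had more.

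The typical member was a small accumulation. Its median width was 421 bp in replicate 2 (quartiles 201 and 821 bp), and the overlapping peak of replicate 1 had a median of 261 bp. At 25 members (2.03%) the replicate 1 peak was at least 2000 bp wide, so these were narrow in replicate 2 only. Among the genes named here they were at Btg2 (2041 bp in replicate 1), Acta1 (2521 bp), Flnc (2801 bp), Igf2 (4021 bp), Myh8 (5621 bp, over 2 members) and Rdh5 (7081 bp). Within 500 bp of the centre the median member held 14 reads in Pol II replicate 1 and 23 in replicate 2, against 15 and 19 in the far deeper Input libraries. Without repeat windows the median of the mean RPM was 8.64 and the median log2 ratio of Pol II to Input 3.60, compared with 4.12 for the 777 broad peaks (at least 2000 bp, in both replicates) and 3.38 for the 3201 narrow peaks elsewhere. Over the 1219 members without repeat windows, log2 RPM of the replicates had a Pearson correlation of 0.69 and a Spearman correlation of 0.60, as a description over peaks that were all selected in both libraries. The SD of the log2 difference between replicates, pooled over these members, was 0.46. Differences of about this size between members in a single replicate can therefore be replicate error. The error of a given member, or of its mean over both replicates, was not estimated.

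**Figure D2:**
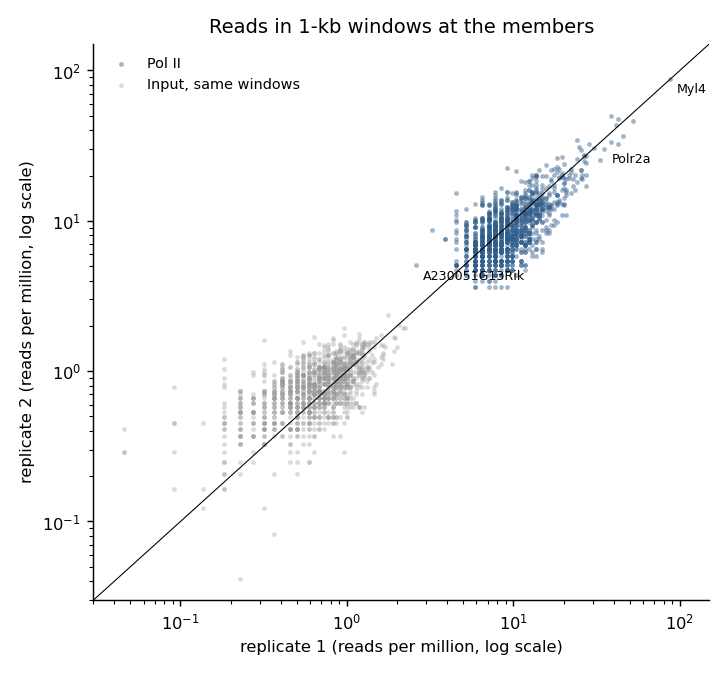
RPM within 500 bp of the centre of each of 1219 members in replicate 1 (horizontal) and replicate 2 (vertical), on log axes, for Pol II (blue) and Input (grey), with the line of equal values. Pol II values lie above the Input values of the same windows, as the choice by Pol II calls largely sets. Myl4 is highest and A230051G13Rik lowest by the mean of both replicates.

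Myl4, Flnc, Igf2 and Hes6 were among the 12 members with the most Pol II outside repeat windows. Myl4, the embryonic and atrial light chain of myosin, had 134 and 244 Pol II reads at an internal start (chr11:104438111-104439371), or 87.1 and 88.3 RPM, against 1.78 and 2.35 RPM in Input. The 5′ end of Myl4 lies in a broad peak, and another Pol II peak lies 520 bp from this member. Flnc, the muscle filamin, had 65 and 90 reads and Igf2, an insulin-like growth factor, 51 and 70 at an internal start. Hes6, a basic helix-loop-helix factor, had 70 and 102 reads against 7 and 16 in the deeper Input libraries.

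The other 8 had means between 30.4 RPM at Hn1 and 49.2 RPM at Poldip3. Poldip3 had 80 and 128 reads at 677 bp upstream of its start, and Tuba1b had 59 and 138 reads at 608 bp downstream. Gtf3c6 had 64 and 120 reads at 900 bp upstream. Tex14, known for its role in germ cells, had 65 and 131 reads at an internal start in an intron. Polr2a had 54 and 83 reads across its 5′ end (chr11:69571231-69572451) and Hn1 44 and 89 reads at 1 bp upstream of its nearest start. BC019943 had 59 and 93 reads in a peak of 241 bp, and Rdh5, a retinol dehydrogenase, 47 and 84 reads. The 3 lowest members were A230051G13Rik with 4 and 14 Pol II reads, Gfpt1, the entry enzyme of hexosamine synthesis, with 7 and 12, and Mad2l1bp with 7 and 13.

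The peaks on either side of the limits on width and distance are given as a description. Klhl31 and Tlk2, both 1961 bp wide, were the widest members, with 19.8 and 10.2 RPM. The narrowest peaks left out, at 2310022A10Rik and Slc39a13, were 2021 bp wide, with 16.2 and 15.9 RPM. The members farthest from a start, at Nup214 and Alpk3, lay 995 bp from it and had 5.32 and 7.49 RPM. The nearest peaks left out for distance, at most 1003 bp from a start, were at Rtl1 and Rimbp3, with 22.0 and 8.46 RPM.

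Starts with a narrow peak were rich in CpG. Genes were classed by their 5′ end: 968 had a member within 1 kb of it (4.33% of protein-coding genes), 98 lay in a broad peak, 2278 had another peak within 1 kb and 19023 had none. Over the 300 bases from 250 before to 50 after the 5′ end, 697 of the 968 (72.0%) had an observed to expected CpG ratio over 0.6 and over 50% GC, against 36.7% of the 98 genes with a broad peak, 72.7% of those with another peak and 41.7% of all protein-coding genes. The median CpG ratio was 0.811, compared with 0.519 at broad-peak genes and 0.534 over all genes. This share depended on the limits, and with 0.75 and 55% GC 50.1% of the starts passed. Around the peak centres, with 500 bases on each side, 49.8% of all 1230 members passed. That value also covers members near internal starts only, so it differs in set, position and window length. At the first limits, genes with another peak had a similar share of 72.7%, so CpG content does not set the narrow peaks apart from them.

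The ETS core, GC box, NRF1 core and TGACGTCA element had a higher share at these starts than over all genes, and CCAAT and the E-box CAGCTG did not. Motifs were searched on both strands of the 300-base window, as letters without mismatch. The ETS core shown at Gtf3c6 occurred at 23.3% of the 968 starts, against 8.16% of broad-peak starts and 10.8% of all starts. The GC box shown at Tuba1b occurred at 59.8%, 52.0% and 43.4%. The NRF1 core shown at Gadd45b occurred at 6.71%, 1.02% and 3.30%, and the TGACGTCA element shown at Eef2 at 5.17%, 1.02% and 2.32%. The E-box CAGCTG shown at Tars occurred at 14.9% of narrow-peak starts, 28.6% of broad-peak starts and 15.2% of all starts. The Sox motifs ACAAAG and ACAATG occurred at 14.2% and 7.75%, compared with 17.6% and 10.6% of all starts. CCAAT, shown at Hn1, occurred at 36.8%, 33.7% and 37.9%. The TCT initiator CTCTTTCC occurred at 2.58% of narrow-peak starts and 3.06% of all starts, and the Ronin/ZNF143 core ACTACAAT at 0.723% and 0.778%. Starts with another peak within 1 kb had similar shares of the ETS core (24.6%), GC box (63.5%), NRF1 core (6.76%) and CAGCTG (14.4%). These motifs are therefore not particular to the narrow peaks either. The TGACGTCA element occurred at 3.64% of starts with another peak, between its shares at narrow-peak starts and over all starts.

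TATA boxes in the canonical place were rare, at genes with high and with low Pol II. TATAAA on the gene strand, beginning 40 to 20 bases before the 5′ end, was found at 22 of the 968 genes (2.27%), against 0.966% of genes with another peak and 2.38% of all genes. The 22 included Acta1, the skeletal actin of the thin filament, Polr2a, Hn1, the splicing factors Srsf2 and Srsf3, and Junb, an AP-1 subunit. Within 500 bp of the 5′ end their median was 13.3 and 11.4 RPM in the Pol II replicates, against 7.80 and 7.24 RPM for the other 938 genes outside repeat windows, and the quartile ranges of these sets overlapped. Acta1 led the 22 with 68 and 143 reads against 20 and 28 in Input. The lowest were Alpk3 with a mean of 5.35 RPM and 2810021B07Rik with 5.57 RPM. Acta1, Rpl3, Hes6 and Poldip3 were the genes with the most Pol II at a 5′ end that was not CpG-rich. Rpl3 and Poldip3 failed the GC limit only, at 50% and 49% GC, with CpG ratios of 1.125 and 0.898. At Acta1 and Hes6 the CpG ratio was 0.457 and 0.530. By CpG class the levels were close, with medians of 7.80 and 7.24 RPM for 696 CpG-rich starts and 7.80 and 7.60 RPM for 264 others.

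The shape of the Pol II signal differed by CpG class. Reads were shifted by 100 bp toward the middle of the fragment and averaged in 100-bp steps over genes with no 5′ end of the opposite strand within 1 kb. At 517 CpG-rich starts the mean Pol II density rose on both sides, to 9.93 and 9.31 reads per kb and 1000000 mapped reads (RPKM) in the step from 300 to 200 bp upstream and 14.0 and 12.2 RPKM from 100 to 200 bp downstream, with a dip between them. The sum over 500 bp downstream was 1.10 times that over 500 bp upstream in each replicate. At 228 starts that were not CpG-rich, the same upstream step held 6.81 and 6.89 RPKM and the downstream step 13.9 and 14.6 RPKM, and the downstream sum was 1.58 and 1.70 times the upstream sum. Input was lower after the start than before it in both classes, with ratios of 0.534 and 0.620 at CpG-rich starts and 0.703 and 0.857 at the others, and its part in the Pol II shape was not tested. At 215 genes with a 5′ end of the opposite strand within 1 kb the Pol II ratio was 1.07 and 1.03.

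**Figure D3:**
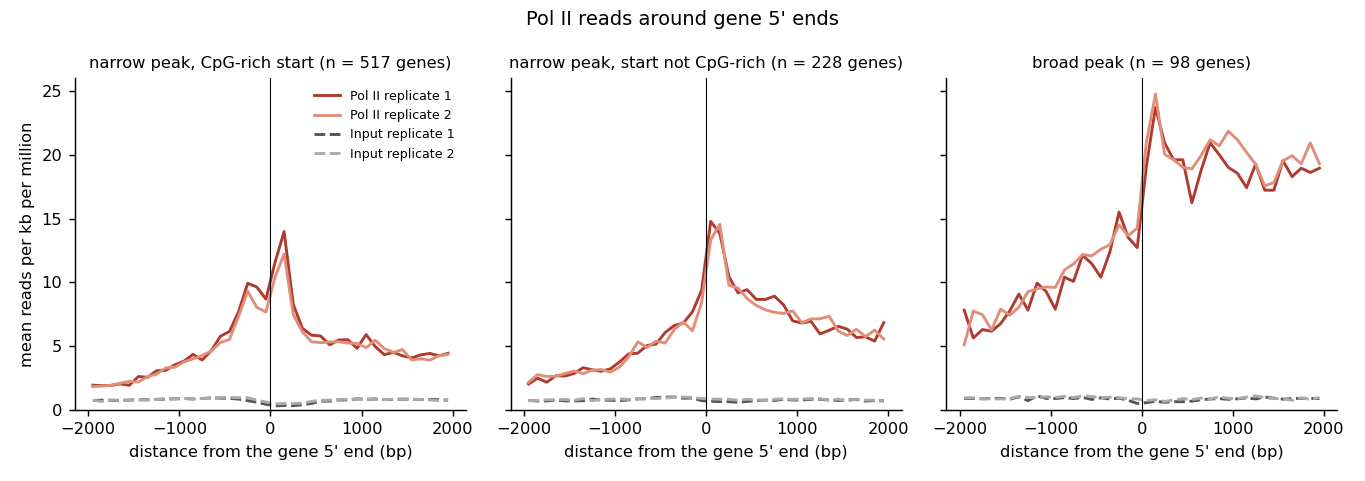
Mean Pol II (solid) and Input (dashed) density in RPKM, by replicate, in 100-bp steps from 2000 bp before to 2000 bp after the gene 5′ end. Narrow-peak genes with a CpG-rich start (517 genes) have a rise on both sides of the start, those without (228 genes) 1 rise after it, and the 98 broad-peak genes stay high into the gene.

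Pol II fell off inside narrow-peak genes, as it did inside genes with another peak at the 5′ end, and less so inside broad-peak genes. From 1 to 2 kb after the 5′ end, density was 0.493 and 0.538 times that of the 500 bp after the 5′ end at the 517 CpG-rich starts and 0.541 and 0.575 times at the 228 others, compared with 0.894 and 0.934 times at the 98 broad-peak genes. Per gene, the density within 500 bp of the 5′ end was divided by that from 1 kb after it to the end of the gene, for 845 narrow-peak genes with a body of at least 2000 bp. The median ratio was 3.61 in Pol II replicate 1 and 3.26 in replicate 2, and it was over 2 at 74.2% and 71.5% of the genes. For 2064 genes with another peak it was 2.78 and 2.87, and over 2 at 62.3% and 65.8% of them. For 78 broad-peak genes it was 1.72 and 1.88, and for Input at the same 845 genes 0.897 and 1.10. A high value near the start is part of how the members were chosen, so these ratios carry no test.

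The named genes differed widely in this ratio. Polr2a had 26.6 and 16.6, BC019943 13.1 and 9.73, Poldip3 14.0 and 7.42 and Srsf7, a splicing factor, 8.15 and 8.56. At the other end, Myh8, the perinatal myosin heavy chain, had 1.06 and 0.771, on either side of equal density. Flnc had 0.865 and 0.385, with more Pol II per kb in its body than at its 5′ end in both replicates. Psmc3, a proteasome ATPase, had 0.492 and 0.263. Eef2, whose start is shown above, had 1.33 and 1.41.

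Genes of cytosolic ribosomal proteins held narrow peaks more often than any other list examined. A member lay near a start of 46 of 78 of these genes (59.0%), against 5.41% of all protein-coding genes. Of their 50 members 31 (62.0%) had the centre within 100 bp of the start, compared with 33.9% of members at 5′ ends and 28.4% of all members. The share was also 59.1% for 22 members of oxidative phosphorylation genes, 55.6% for 9 of mitochondrial ribosomal protein genes and 53.9% for 13 of chaperone genes. The median level of the 50 was 9.31 RPM. Rpl3, of the large subunit, had 42 and 75 Pol II reads at 85 bp upstream of its start. Rps2 and Rps27, of the small subunit, had 39 and 60 and 27 and 43 reads. Pol II in their bodies was high as well: over 22 such genes long enough to measure, the median ratio of start to body was 1.65 and 1.71 in the replicates, less than at all narrow-peak genes. The 7 of 76 mitochondrial ribosomal protein genes with a member (9.21%) included Mrps12, Mrpl54 and Mrpl53. At Mrps12 the 3 members held between 15 and 19 reads in replicate 1 and between 19 and 34 in replicate 2.

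**Figure D4:**
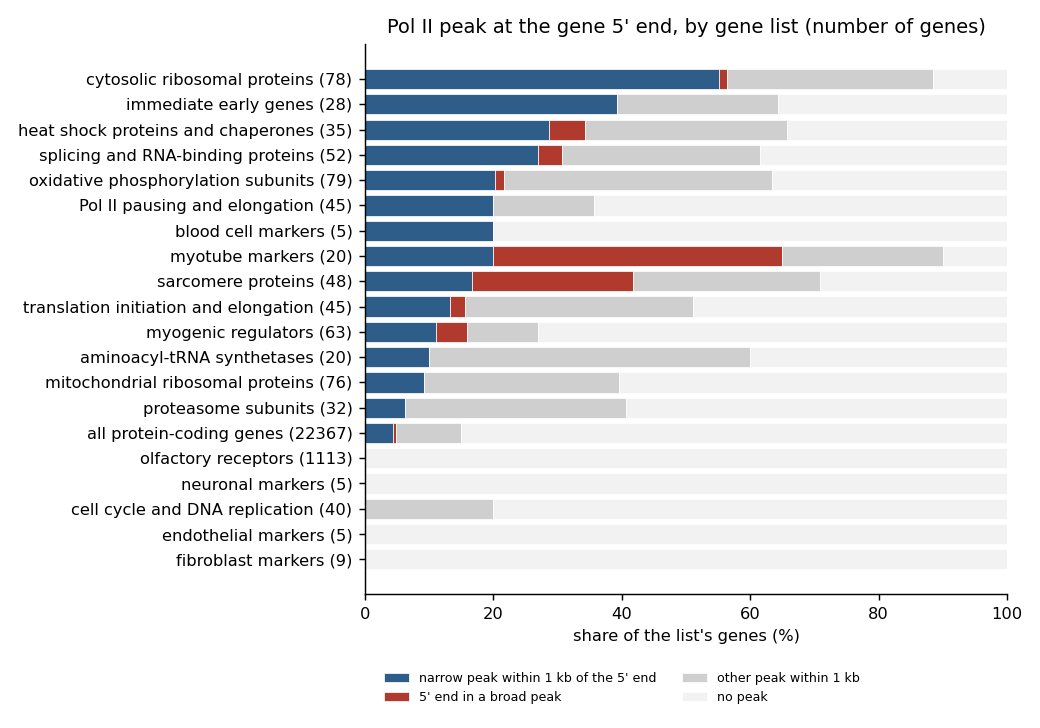
Share of each list's genes, in percent, with a narrow peak within 1 kb of the 5′ end (blue), a 5′ end inside a broad peak (red), another peak within 1 kb (grey) or no peak (pale), with the number of genes in brackets. Cytosolic ribosomal proteins have the largest narrow share (55.1%), myotube markers the largest broad share (45%), and olfactory receptors have no narrow peak.

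Immediate early genes, which respond to stimuli within minutes, came next. Of 28, 13 had a member at a start (46.4%) and 0 had the 5′ end in a broad peak. Gadd45b had 30 and 73 Pol II reads at 155 bp downstream of its start, in a peak that begins at the downstream end of the sequence shown above. Btg2, an antiproliferative gene, had 31 and 36 reads in a peak 816 bp downstream, and Jun, an AP-1 subunit, 25 and 42 reads at 441 bp downstream. The 14 members had a median centre 110 bp downstream and a median of 9.85 RPM.

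Members were also frequent at RNA processing and chaperone genes. Of 52 genes for splicing and RNA-binding proteins, 18 had a member (34.6%). Srsf7 had 25 and 47 reads in a peak of 61 bp, Sf3a2 31 and 35 reads and Hnrnpa1 29 and 37. Of 35 heat shock protein and chaperone genes, 12 had a member (34.3%). Hspa5, the chaperone of the endoplasmic reticulum, had 31 and 49 reads against 4 and 29 in Input, Hspa8, a constitutive cytosolic chaperone, had 22 and 36 reads in a peak of 41 bp, and Hspa2 16 and 29. In 13 of 14 narrow-peak genes of the splicing list and 9 of 10 of the chaperone list the start was CpG-rich.

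Part of the machinery that acts on paused Pol II had narrow peaks at its own genes. Of 45 genes for Pol II subunits, pausing and elongation factors, 10 had a member (22.2%), and in all 9 with a member at the 5′ end the start was CpG-rich. Besides Polr2a, the subunit genes Polr2b and Polr2e had 10 and 17 and 10 and 15 reads. Ccnt1, the cyclin of P-TEFb, had 22 and 30 reads, and 2 genes for the complex that holds P-TEFb inactive, Hexim1 and Mepce, had 12 and 39 and 13 and 17. The kinase genes Cdk7, Cdk12 and Cdk13 had 14 and 32, 16 and 27 and 9 and 23 reads, and Paf1, a subunit of an elongation complex, 9 and 18. In RPM, the lowest Pol II value of these genes in either replicate lay above both Input values of that gene. The choice of peaks called against input largely sets this in advance, so it is a description only. The peaks at Polr2b and at Paf1, which is paired with Med29, belong to the head-to-head set described below. Their reads cannot be assigned to 1 gene.

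Genes for sarcomere proteins had broad as well as narrow peaks. Of 48, 12 had a narrow member at some start (25%). At the 5′ end 8 had a narrow peak, 12 lay in a broad peak, against 0.438% of all genes, 14 had another peak and 14 had none. Of the 20 myotube markers, 8 had a member (40%). Myh8 had 38 and 86 reads at an internal start and 35 and 52 at its 5′ end. Acta1 had 41 and 69 reads in a peak of 161 bp in replicate 2, 380 bp upstream of its start, with another Pol II peak 360 bp away. Of the 8 narrow-peak genes of this list 1 had a CpG-rich start (12.5%), compared with 72.0% of all narrow-peak genes, and their median ratio of start to body on both replicates together was 1.59 over 6 genes. Only 3 of the 18 members of this list (16.7%) had the centre within 100 bp of the start. Ckm, the muscle creatine kinase among the myotube markers, had 16 and 20 reads in a member at its 5′ end.

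Members at myogenic regulators had a median of 8.50 RPM against 8.64 RPM for all members outside repeat windows. Of 63 genes, 11 had a member (17.5%). Of their 13 members, a small set, 1 had the centre within 100 bp of the start, compared with 28.4% of all members. It was at Id3, an inhibitor of helix-loop-helix factors, with 12 and 20 reads. Six5, a homeobox gene, had the most with 34 and 61 reads, but 872 bp upstream of its start and inside an exon of Dmpk, which ends there on the same strand, so these reads cannot be assigned to 1 of the genes. It was followed by Runx1 with 21 and 54 reads at an internal start and 15 and 35 at the 5′ end. Tead4, a factor that binds MCAT sites, had 23 and 33 reads, and Eya4, a partner of the family of Six5, 17 and 26. Among the MEF2 genes, which act with MyoD, Mef2c had 15 and 22 and 11 and 22 reads at internal starts, Mef2a 10 and 29 and Mef2d 10 and 22. Nfatc3 had 12 and 21 reads, and the deacetylase genes Hdac5 and Hdac11 9 and 18 and 9 and 16. Myod1 and Myog, the leading regulators of the lineage, had their 5′ ends in broad peaks. Of the 7 narrow-peak genes of this list, 2 had a CpG-rich start.

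Other housekeeping lists had a member at a smaller share of their genes than the cytosolic ribosomal proteins. Of 79 genes for subunits of oxidative phosphorylation, 18 had a member (22.8%), with Ndufa12 and Ndufb2 of complex I at 21 and 30 and 12 and 43 reads and Uqcr11 of complex III at 23 and 24. Of 45 translation factors, 7 had a member (15.6%), with Eef2 at 23 and 40 reads, Eif3a at 24 and 34 and Eef1g at 23 and 32. Of 20 aminoacyl-tRNA synthetases, 3 had a member (15.0%): Tars with 13 and 25 reads, Mars with 11 and 21 and Hars, at a start shared with Hars2, with 10 and 16. Of 32 proteasome genes, 3 had a member (9.38%): Psmc3, Psma6 and Psmd2, with between 11 and 16 reads in replicate 1 at the highest member of each. Of 40 cell cycle and DNA replication genes, 1 had a member (2.50%), the clamp loader gene Rfc4 with 28 and 27 and 13 and 37 reads in members at internal starts. None of 1113 olfactory receptor genes had a member.

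A set of 71 members had both 5′ ends of a head-to-head gene pair within 1 kb of the peak centre, which lay between the 5′ ends or to one side of them. Their median level was 8.06 RPM, close to the 8.61 RPM of all members at 5′ ends, and 37 (52.1%) had the centre within 100 bp of a start. Rps27 shared its peak with Rab13, Hnrnpa1 with Cbx5, Srsf7 with Ttc39d and Mrps12 with Sars2. Reads at such a peak cannot be assigned to 1 gene of the pair.

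Sox6 binding was compared with input in the same windows. The choice of members used no Sox6 reads, although the authors called the Pol II peaks with input as background. With a count model whose dispersion was moderated by limma across all 17488 Pol II peaks, Sox6 was higher than input at 44 members at a Benjamini-Hochberg adjusted p under 0.05 (3.58%) and lower at 0. Over all Pol II peaks the share called higher was 4.93%, and the members' share lay near and below this background. The share was 2.74% for members at 5′ ends, 5.67% for those at internal starts, 7.46% for broad peaks and 8.18% for narrow peaks elsewhere. In RPM summed over the 1219 members without repeat windows, Sox6 was 1.74 times input (1.65 and 1.82 in the replicates), and it was 1.74 times over all Pol II peaks without such windows as well. The median log2 ratio over all peaks was 0.50. Scaling each library by its median ratio over the 13260 windows with reads in all 4 libraries, in place of all mapped reads, lowered the log2 ratios (4.91 to 4.22 at Hdac11) and left 19 members called higher and 2 called lower. With the replicate number as a block 0 members were called, as without either Input replicate.

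Of the 44 members, all had more Sox6 than input in RPM in both replicates, which the calls on these same reads largely set. Hdac11 led them: the narrow peak 428 bp upstream of its start, whose sequence is shown above, held 111 and 74 Sox6 reads, or 37.2 and 50.4 RPM, against 1.23 and 1.53 RPM in Input. Its log2 ratio was 4.91 (SE 0.31, limma-moderated adjusted p = 3.05e-08). Pol II at the same place was 9 and 16 reads, in a peak of 81 bp, near the low end of the members.

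Pol II at the called members ranged from 4.81 RPM at Arl5a to 87.7 RPM at Myl4. Gcom1, at an internal start in an intron, had 34 and 11 Sox6 reads against 27 and 25 Input reads of the deeper libraries (log2 ratio 3.17, SE 0.38, limma-moderated adjusted p = 4.55e-05) with 11 and 20 Pol II reads. Abcg2, an efflux transporter, had 22 and 11 Sox6 reads (log2 ratio 3.61, SE 0.43) with 15 and 19 Pol II reads. Mogat1, an enzyme of triglyceride synthesis, had 23 and 14 (log2 ratio 3.19, SE 0.40) and Arl5a, a small GTPase, 29 and 14 (log2 ratio 2.74, SE 0.36). Myl4, with the most Pol II of all members outside repeat windows, had 24 and 16 Sox6 reads (log2 ratio 2.11, SE 0.39, limma-moderated adjusted p = 2.52e-03). In windows of 250 bp on each side neither Mogat1 nor Myl4 was called (log2 ratios 1.32 and 1.28, limma-moderated adjusted p = 0.519 for each). Btg2, of the immediate early genes, was called with 7 and 9 Sox6 reads (log2 ratio 2.17, limma-moderated adjusted p = 0.0281), a call kept under 4 of 13 alternatives. Without Sox6 replicate 2 its log2 ratio was 1.55 (limma-moderated adjusted p = 0.327).

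**Figure D5:**
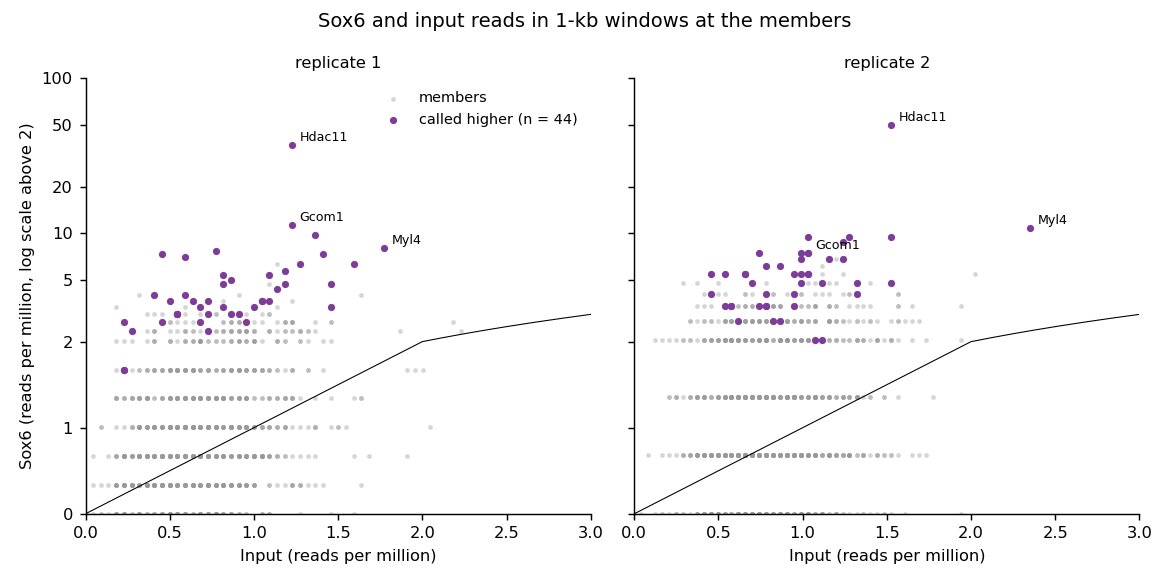
Sox6 against Input in RPM within 500 bp of the peak centre for 1219 members, by replicate, with the line of equal values; the vertical axis is linear up to 2 and logarithmic above. The 44 members called higher from these same reads (purple) lie above the line in both replicates, with Hdac11 highest at 37.2 and 50.4 RPM.

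Few members coincided with the deposited Sox6 peaks shared by both Sox6 experiments. Such a peak overlapped 17 of the 1230 members (1.38%), or 11 of the 1219 without repeat windows (0.902%), compared with 1.48% of all Pol II peaks, 6.44% of broad peaks and 2.97% of narrow peaks elsewhere. Of the 17, 6 were at Gm10800, Gm10801, Gm10717, Gm10718, Gm10720 and Gm10722, where Input was high too. Of the 11 others 10 were among the 44 called, which the same Sox6 reads decided: Hdac11, Gcom1, Arl5a, Myl4, Mogat1, Tmem120b, Abcg2, Cnot6l, Ms4a10 and Hist4h4. The exception was Ndufaf3, an assembly factor of complex I, with 4 and 2 Sox6 reads against 8 and 14 Input reads.

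At the 5′ ends themselves Sox6 was not called. The same model over 21682 gene 5′ ends with reads, again moderated by limma, called 0 of the 968 narrow-peak genes and 0% of all genes higher. Places near 5′ ends did not lack calls, as 24 of the 44 called members lay within 1 kb of one. Ms4a10 was called as a member centred 1 bp from its start (limma-moderated adjusted p = 9.74e-04). Its 5′ end window, shifted by 1 bp, had equal Input counts, 28 and 24, and equal Pol II counts, 9 and 16, but was not called. Dispersion and adjustment there were taken over the 5′ end windows, not over the Pol II peaks. The lack of calls at 5′ ends therefore does not show a lack of Sox6 there. Why the calls differed was not tested further. At an unadjusted p under 0.05, 90 narrow-peak genes were higher and 11 lower, against 836 and 101 of all genes. A limma fit with 0.5 reads added called 44 narrow-peak genes and 368 of all genes, and exact binomial tests passed in both replicates called 8 and 17. The count model was preferred because added reads lift the ratio of the shallower Sox6 libraries at low counts. The median 5′ end window of a narrow-peak gene had a log2 ratio of 0.49, compared with 0.94 for broad-peak genes and 0.21 for all genes.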

How the data were processed

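Chromatin immunoprecipitation reads of Sox6, Pol II and Input (2 libraries each) were analysed. Per the labels and methods, the authors aligned reads with Bowtie (version 0.12.5) to NCBI Build 37, kept those mapping to a single place, and used SISSRs to find peaks in each library, with its own input as background. The deposited read files hold positions with an unused score, and the deposited peak files hold positions with a score that is unnamed. It was not used here.

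Reads were counted by their 5′ ends in windows of 500 bp on each side of a peak centre or gene 5′ end and scaled to all mapped reads. Repeated positions were kept. Starts and exons came from GENCODE models of the same build. Sox6 was tested against Input with a Poisson log-linear model, its dispersion moderated by limma 3.58.1 in R 4.3.3 with a floor of 1, F tests and Benjamini-Hochberg adjustment over all windows at 0.05. The test was checked on simulated data with 200 changed windows. Other steps used Python 3.11.15 (pandas 2.3.3, numpy 2.4.6, matplotlib 3.10.9, pysam 0.24.0, scipy 1.17.1).

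The members, gene lists and motifs were chosen with earlier results of these data known. Named were the 12 members with most Pol II (with and without repeat windows), the 3 with least, all of the myogenic and elongation lists, up to 3 of each other list, those next to the width and distance limits (the latter added later), the 5 leading Sox6 calls and the members on shared Sox6 peaks. Further genes named as examples (Brd2, Macf1, Ttn, Neb, Id3, Ckm, Srsf2, Srsf3, Junb, 2810021B07Rik, Tnni1, Dmpk, the head-to-head pairs and Btg2 under Sox6) were picked after their values were seen. The limit of 100 Input reads for repeat windows was also set after seeing the data. The 2 libraries of a group came from independent experiments of 1 kind of culture. The p-values rest on read counts and on a dispersion moderated over all windows with a floor of 1. They therefore measure the spread between the 2 libraries at a single window only in part. The methods give each ChIP experiment its own input without naming the Input library by number. Taken as pairs, Sox6 and Input replicate differences had a correlation of 0.021 over 13260 windows. With medians of 3 and 2 Sox6 reads per window over all Pol II peaks, this value cannot decide whether the libraries pair. Alternatives were other limits, windows, scalings, filters and tools, and each library left out.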

Additional observations from a re-analysis of the deposited data

How the results depend on the processing

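The number of members stayed within 1.5 times of 1230 under other widths, distances, annotation and exchanged replicate roles (877 to 1620), but requiring an overlap of 50% left 515. The median ratio of start to body was 3.59 on both replicates, 3.87 with 250 bp on each side of the start, and 3.26 to 3.61 with 1 Pol II replicate left out. The share of CpG-rich starts fell from 72.0% to 50.1% with stricter limits. Around the peak centres of all 1230 members, another set in a longer window, the share passing was 49.8%. The sum of Sox6 over input at all members rested on the repeat windows: it was 1.61, but 0.889 to 4.98 with 1 replicate alone, which turned its direction. Without those windows, an alternative chosen after seeing the data, it was 1.74, and 1.58 to 1.82 over the alternatives.

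Of members called for Sox6 (44) and all peaks called (863), limma with 0.5 reads added gave 139 and 2187, limma with a pseudocount of 0.1 RPM 19 and 402, exact binomial tests in both replicates 21 and 428, scaling to the median ratio 19 and 388 (and 2 members lower), windows of 250 bp 6 and 125, and windows of 1 kb 93 and 1637. The 0.5 added reads lift the ratio of the shallower Sox6 libraries at low counts. With a library left out the counts were 0 to 35 members and 0 to 733 peaks. Both were 0 without either Input replicate, and peaks were 550 without Sox6 replicate 1. The replicate block gave 0 members and 0 peaks. Apart from that block and from leaving out an Input library, 6 of the 44 members were called under all 10 other alternatives, among them Hdac11, Gcom1, Abcg2 and Arl5a. Of 143 gene values over 11 named genes, 97 kept their call, 46 lost it and 0 changed sign.

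At gene 5′ ends, where 0 were called, narrow-peak genes and all genes called were 44 and 368 by limma with 0.5 reads added, 8 and 17 by exact binomial tests, 2 and 3 with at least 20 reads, 2 and 5 in windows of 1 kb, 7 and 9 with repeated positions counted once, and 0 to 6 and 0 to 30 with a library left out. The replicate block gave 0 of both. The cause of these shifts was not tested. Medians of 14 and 23 Pol II reads per member and fewer Sox6 reads limit every value for a single member.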
